A study of Mus musculus with 30 samples.

Results

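Thin filaments and myosin light chains of skeletal muscle come in slow and fast forms. Genes that encode them, together with Actn3 of the Z-disc, were followed across the 8 groups of this series, 10 genes in all. The slow genes were Tnni1, Tnnt1, Tnnc1, Myl2 and Myl3, and the fast genes were Tnni2, Tnnt3, Tnnc2, Mylpf and Actn3. They were picked by name and make up 10 of 56748 genes in the count table. All 10 passed the filter on low counts.

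Troponin sits on the thin filament and switches contraction on when calcium rises. Its C subunit binds calcium, its I subunit holds the filament off and its T subunit ties the complex to tropomyosin. The light chains wrap the lever arm of myosin, and alpha-actinin-3 anchors thin filaments at the Z-disc of fast fibres. Slow and fast fibres use different genes for each of these parts, and the mouse quadriceps is mostly fast with a small slow portion.

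Poly(A)-enriched RNA from quadriceps of 30 mice was sequenced. WT mice were FVB/N (n = 5). The other groups were homozygous HSA-LR mice, a model of myotonic dystrophy type 1 in which a human skeletal actin transgene with a long CTG repeat is expressed in skeletal muscle. Nontreated HSA-LR mice are called NT (n = 8). Other HSA-LR mice were injected by the tail vein with pacDNA-L9, an LNA antisense oligonucleotide against the repeat carried on a bottlebrush polymer. Of these, 4 had a dose of 5.3 mg/kg by oligonucleotide mass, 3 had 21.2 mg/kg and 3 had 42.4 mg/kg. As controls, 3 HSA-LR mice had the oligonucleotide without polymer (free L9) and 2 had a conjugate of scrambled sequence (pacDNA-Scr), both at a dose of 5.3 mg/kg, and 2 had only the polymer (Brush, 40 nmol). Mice were about 8 weeks old at injection and were sampled 2 weeks after the last injection, and the higher doses were reached by repeated injections, so that dose and number of injections cannot be told apart. The transgene is a single line, and all treated mice carry it.

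Between 13605309 and 26956558 reads were counted per library. Library numbers in the labels restart once, which gives 2 deposited sets, 24 libraries in the first and 6 in the second. The second holds NT 7 and 8, mice C and D at 5.3 mg/kg, and mouse C both at 21.2 mg/kg and in the free L9 group. All 37 mitochondrial genes had no counts in 5 libraries of the second set. All 3 mice at 42.4 mg/kg and 4 of 5 WT mice were female by their counts. The tissue was checked by markers, and the summed level of 5 skeletal muscle markers (Acta1, Ckm, Myh4, Mb and Des) ran from 67460 to 137100 CPM (counts scaled to the size of the library). Nothing in the sources used here ties mice to litters or days, so p-values measure the spread between these mice.

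The windows before the start sites of the 5 slow genes are shown because the levels of these genes tracked each other from mouse to mouse. The sequences are from RefSeq, on build GRCm38.p6, and each covers the 250 bases before the start, read 5′ to 3′ along the gene. Entries were found for 7 of the 10 genes, and Tnni2, Tnnt3 and Actn3 had none. Where a gene had 2 windows the first listed was used. The windows lie at chr1:135799171-135799420 (plus strand), chr7:4515976-4516225 (minus strand), chr14:31208062-31208311 (plus strand), chr5:122092474-122092723 (plus strand) and chr9:110763428-110763677 (plus strand). Capitals mark the E-box CANNTG, the site of the MyoD family, and the MCAT element CATTCC, the site of the TEAD family, on either strand.
Tnni1: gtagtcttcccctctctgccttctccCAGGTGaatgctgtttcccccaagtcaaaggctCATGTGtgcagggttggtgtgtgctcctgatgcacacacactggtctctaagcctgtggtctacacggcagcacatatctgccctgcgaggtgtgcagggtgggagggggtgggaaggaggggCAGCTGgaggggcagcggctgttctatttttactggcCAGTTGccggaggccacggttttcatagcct
Tnnt1: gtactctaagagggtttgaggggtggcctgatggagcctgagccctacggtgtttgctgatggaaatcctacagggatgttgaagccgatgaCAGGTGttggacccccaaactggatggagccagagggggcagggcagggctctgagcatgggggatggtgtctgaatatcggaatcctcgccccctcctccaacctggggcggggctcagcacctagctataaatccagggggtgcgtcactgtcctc
Tnnc1: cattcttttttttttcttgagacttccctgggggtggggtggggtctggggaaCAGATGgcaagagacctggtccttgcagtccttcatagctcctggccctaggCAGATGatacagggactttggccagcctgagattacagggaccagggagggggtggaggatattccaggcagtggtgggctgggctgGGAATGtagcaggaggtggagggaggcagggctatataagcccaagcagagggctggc
Myl2: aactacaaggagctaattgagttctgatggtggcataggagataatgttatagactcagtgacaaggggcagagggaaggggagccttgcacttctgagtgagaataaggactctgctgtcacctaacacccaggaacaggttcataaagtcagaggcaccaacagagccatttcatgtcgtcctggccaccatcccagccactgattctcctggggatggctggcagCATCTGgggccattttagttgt
Myl3: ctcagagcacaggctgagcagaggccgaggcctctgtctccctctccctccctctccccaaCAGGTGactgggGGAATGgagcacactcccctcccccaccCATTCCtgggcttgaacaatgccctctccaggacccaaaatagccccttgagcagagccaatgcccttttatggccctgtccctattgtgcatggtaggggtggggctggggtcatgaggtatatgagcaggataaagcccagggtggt

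All 5 slow windows held an E-box, from 1 in Tnnt1, Myl2 and Myl3 to 4 in Tnni1. An E-box was also present in 66.2% of all 32851 RefSeq windows of this length, so its presence does not set these genes apart. The windows of the fast genes Tnnc2 and Mylpf, not shown, held 2 E-boxes and 1. MCAT was found in Tnnc1 (1 match) and Myl3 (2 matches) and in 12.6% of all windows. The letters TATAAA occurred in Tnnt1, 30 bases before the start, and in 12.4% of all windows. No match overlapped another of a different kind. A match describes the letters of the window and is not evidence of binding.

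The slow genes were present at low levels in every group and varied greatly from mouse to mouse. Tnni1, which encodes slow troponin I, measured 2.39, 8.37, 10.1, 10.8 and 23.8 CPM in WT 1 to 4 and the WT mouse whose column carries no number of its own. In NT it ran from 0.597 to 79.6 CPM with a median of 13.8. The 5.3 mg/kg mice held 8.63, 57.3, 86.7 and 92.2 CPM. The NT values spanned those of WT on both sides, and the lowest and the highest NT mouse were 133-fold apart.

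Tnni1 measured 55.0, 12.6 and 75.5 CPM in the 21.2 mg/kg mice, and 6.43, 80.7 and 125.9 CPM in the 42.4 mg/kg mice. Free L9 gave 98.1, 0.505 and 48.0 CPM. The Brush mice held 0.666 and 71.4 CPM and the pacDNA-Scr mice 9.32 and 89.1 CPM. Each treated group thus held at least 1 mouse within the WT range or below it and at least 1 mouse above the highest WT mouse.

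Myl3, which encodes the essential light chain of slow fibres and of the heart ventricle, had the widest range of the slow genes. It measured 9.06, 21.0, 34.0, 33.7 and 26.4 CPM in WT and ran from 0.977 to 166 CPM in NT, with a median of 46.4. The values were 27.4, 165, 244 and 270 CPM at 5.3 mg/kg. They were 279, 38.6 and 218 CPM at 21.2 mg/kg and 15.4, 291 and 407 CPM at 42.4 mg/kg. Over all 30 mice the highest, 42.4 mg/kg C, was 765-fold above the lowest, Brush A, which held 0.533 CPM.

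For free L9 the Myl3 values were 328, 4.71 and 216 CPM, for Brush 0.533 and 286 CPM, and for pacDNA-Scr 41.0 and 255 CPM. The highest mouse thus exceeded the lowest by 69.6-fold with free L9, 536-fold with Brush and 6.22-fold with pacDNA-Scr. For pacDNA-L9 the ratio was 9.84-fold at 5.3 mg/kg, 7.22-fold at 21.2 mg/kg and 26.5-fold at 42.4 mg/kg.

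Tnnt1, which encodes slow troponin T, measured 12.2, 13.1, 24.9, 26.99 and 48.7 CPM in WT and 0.868 to 204 CPM in NT, with a median of 30.2. The 42.4 mg/kg mice held 15.5, 165 and 240 CPM. Its highest level, 262 CPM, was in the second set, in the mouse 5.3 mg/kg D. In Tnnt1 as in Tnni1, the highest NT mouse was NT 7.

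Tnnc1, which encodes the troponin C shared by slow fibres and heart, measured 1.27, 8.15, 8.68, 10.6 and 16.8 CPM in WT and 0.488 to 63.5 CPM in NT, with a median of 13.9. In the 42.4 mg/kg mice it measured 6.94, 93.7 and 138 CPM. Myl2, the regulatory light chain of slow fibres and ventricle, measured 12.4, 14.4, 31.2, 35.6 and 74.8 CPM in WT and 0.651 to 164 CPM in NT, with a median of 26.3. Its values at 42.4 mg/kg were 23.5, 152 and 237 CPM. For all 5 slow genes the lowest mouse at 42.4 mg/kg was A and the highest was C.

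**Figure D1:**
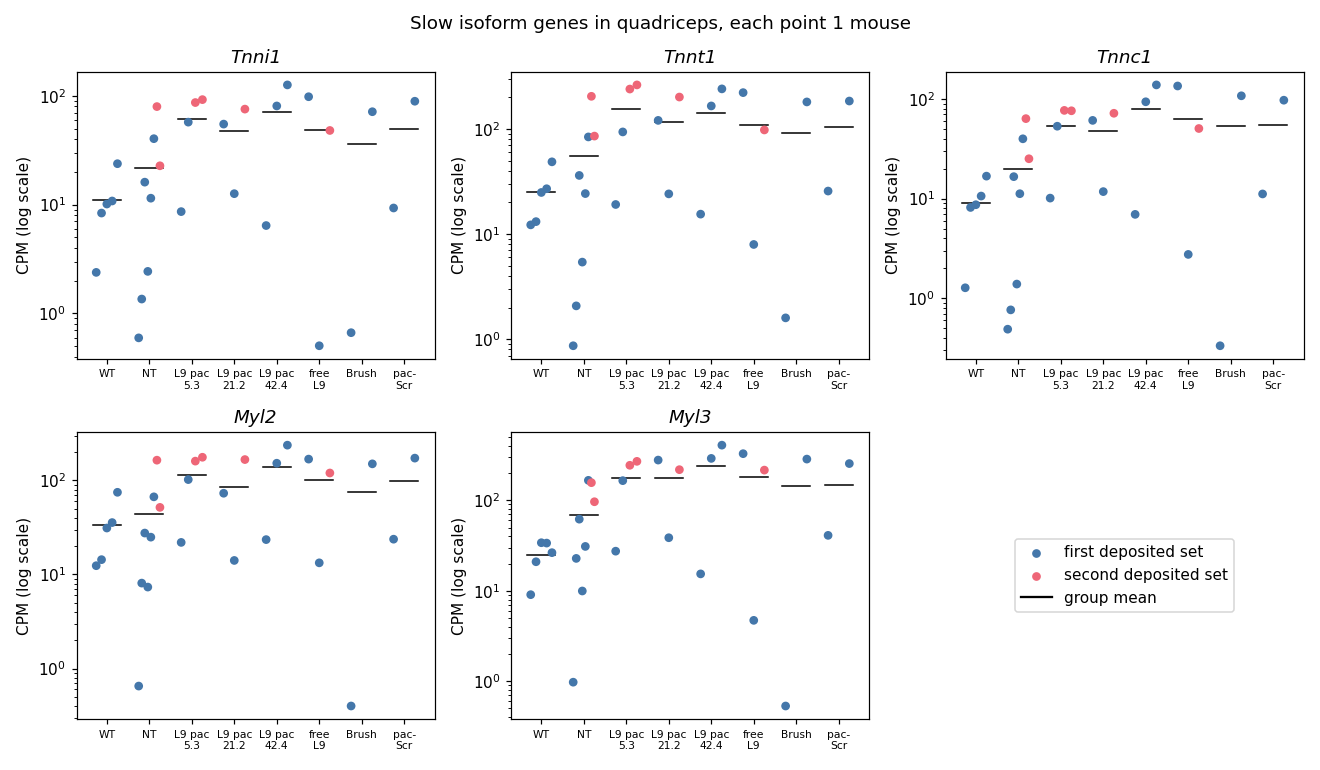
CPM of the 5 slow genes (vertical axis, log scale) in each mouse by group (horizontal axis), with a bar at the group mean and colour for the deposited set. Within NT the points of each gene span more than 100-fold, and every treated group overlaps NT.

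Ordered by group mean, all 5 slow genes were lowest in WT, and 4 of the 5 were highest at 42.4 mg/kg, with Tnnt1 highest at 5.3 mg/kg. Mean Myl3 was 24.8 ± 10.4 CPM in WT (SD, n = 5) and 68.3 ± 65.1 in NT (n = 8). By dose of pacDNA-L9 the means were 177 ± 109 CPM for the lowest dose (n = 4), 179 ± 125 for the middle dose (n = 3) and 238 ± 201 for the highest (n = 3). It was 183 ± 164 CPM with free L9 (n = 3), 143 ± 202 with Brush (n = 2) and 148 ± 151 with pacDNA-Scr (n = 2). The SD was close to the mean or above it in NT and in the Brush and pacDNA-Scr groups. For all 10 genes, all 70 pairs of groups next to each other in the order of means had overlapping mice. The order of neighbouring groups is thus not resolved by these mice. This check did not cover groups further apart in the order.

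In NT against WT none of the 5 slow genes passed the test. The log2 fold changes were 0.98 ± 1.12 (SE) for Tnni1, 1.13 ± 1.12 for Tnnt1, 1.13 ± 1.14 for Tnnc1, 0.38 ± 1.02 for Myl2 and 1.46 ± 1.11 for Myl3, with adjusted p from 0.483 to 0.878 (edgeR's quasi-likelihood test, Benjamini-Hochberg over 17518 genes). Counting all 10 genes, 0 passed, beside 4.97% of all genes tested in this comparison. Of the 10, Tnnc2 alone had an unadjusted p under 0.05 in edgeR, beside 3771 of all 17518 genes tested. DESeq2 called 1 of the 10, also Tnnc2. The direction of the slow genes hung on which mice were used. In the first set alone Myl2 was at -0.57 and the median of the 5 genes fell to 0.12 from 1.13.

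At 42.4 mg/kg against NT the slow genes were again all on the higher side without passing the test. The log2 fold changes were 1.70 ± 1.20 (SE) for Tnni1, 1.34 ± 1.20 for Tnnt1, 2.00 ± 1.20 for Tnnc1, 1.65 ± 1.13 for Myl2 and 1.80 ± 1.16 for Myl3, with adjusted p in edgeR from 0.441 to 0.648. Of the 10 genes 0 passed, beside 2.57% of all genes tested. Tnnc2 was again the single gene of the 10 with an unadjusted p under 0.05 in edgeR, beside 2294 of all 17518 genes. It was also the single one called by DESeq2. Without mouse C the median of the 5 slow genes was 0.99. In the first set alone, which holds all mice of this dose, that median was 2.54. The 5 genes lay at 2.26 to 2.75 there, and none passed. With a term for how the table names its libraries, which sets 9 of them apart, Tnnt1 was at -0.10. The 9 include every mouse at 42.4 mg/kg and only NT 6 among the NT mice, so this term largely overlaps with the dose.

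The other 5 comparisons with NT also called 0 of 10 genes in edgeR. The background was 0% of genes at 5.3 mg/kg, 0.0514% at 21.2 mg/kg, 0.126% for free L9, 0% for Brush and 0% for pacDNA-Scr, so that almost no gene of any kind passed there. No member had an unadjusted p under 0.05 in edgeR in these 5, beside 182 (pacDNA-Scr) to 1641 (free L9) of 17518 genes tested. DESeq2 called 1 gene each for Brush and pacDNA-Scr, in both cases Tnnc2. The median log2 fold change of the 5 slow genes was 1.45 at 5.3 mg/kg, 1.13 at 21.2 mg/kg, 1.20 for free L9, 0.78 for Brush and 1.16 for pacDNA-Scr, with standard errors of 1.05 to 1.43 for the single genes. All these comparisons share the NT mice. Leaving out Brush B moved the Brush median to -5.88, and leaving out pacDNA-Scr B moved the pacDNA-Scr median to -0.89.

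Within the first set 0 of 10 genes passed in any of the 7 comparisons. The background there was 5.45% for NT against WT, 0% at 5.3 mg/kg, 0.0126% at 21.2 mg/kg, 2.70% at 42.4 mg/kg, 2.24% for free L9, 0% for Brush and 0% for pacDNA-Scr. Fast troponin T, Tnnt3, had an unadjusted p under 0.05 in 2 of them, where 519 (5.3 mg/kg) and 3687 (free L9) of 15832 genes tested did as well. Its log2 fold change was -0.41 ± 0.17 (SE) at 5.3 mg/kg and 0.41 ± 0.16 for free L9, with adjusted p of 1.00 and 0.138 in edgeR.

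**Figure D2:**
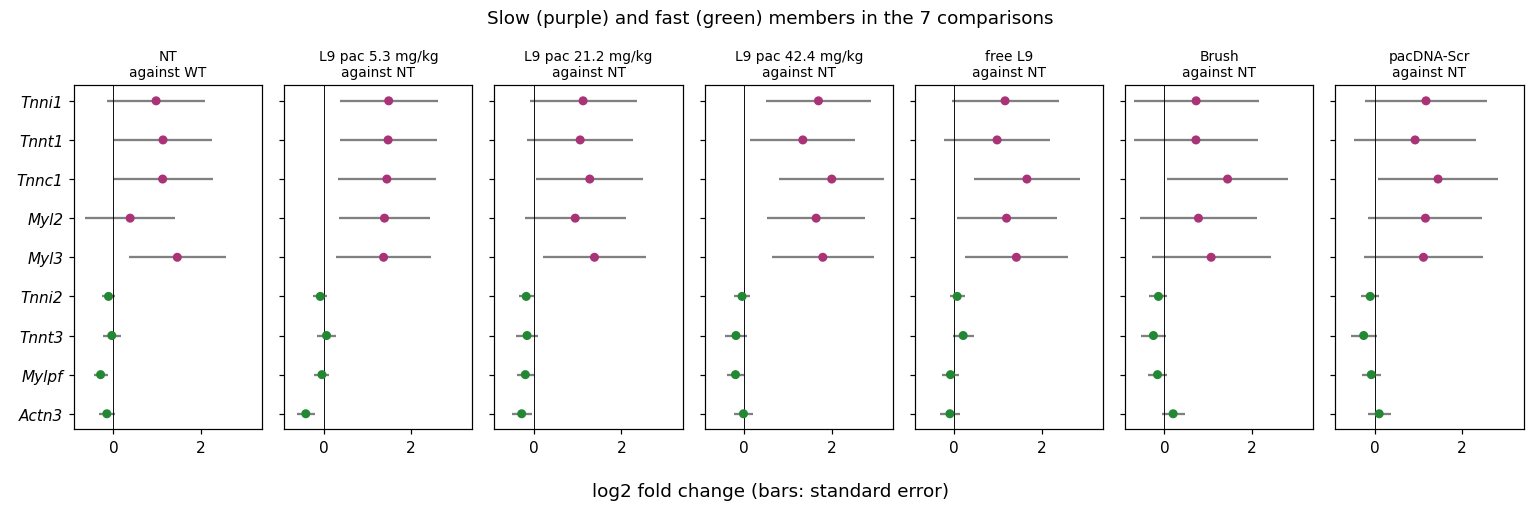
Log2 fold change (horizontal axis) of 5 slow and 4 fast genes (vertical axis) in the 7 comparisons, with standard errors as bars and Tnnc2 left out. Slow genes lie to the right of 0 with bars over 1 unit long on each side, and fast genes lie between -0.41 and 0.21 with short bars.

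The share of slow counts gives 1 value per mouse. It is the counts of the 5 slow genes in percent of the counts of all 10 genes, is built from the genes chosen and is given as a description. Because Tnnc2, described further on, is near 0 in the first set and abundant in the second, the share is not on the same scale in both sets. In WT it was 0.0749, 0.182, 0.254, 0.279 and 0.546%. In NT it ran from 0.0111% (Wilson 95% interval 0.00871 to 0.0141%) in NT 1 to 1.54% (1.52 to 1.57%) in NT 7, with a median of 0.337%. These intervals cover counting error only, and they are narrow beside the distance between mice.

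The slow share was 0.284, 1.95, 1.79 and 1.52% at 5.3 mg/kg, and 2.05, 0.320 and 1.61% at 21.2 mg/kg. The 42.4 mg/kg mice had 0.184, 2.24 and 3.47%. With free L9 it was 2.05, 0.0939 and 1.10%, with Brush 0.0108 and 2.10%, and with pacDNA-Scr 0.294 and 2.42%. It was over 1% in 13 of 30 mice and under 0.1% in 6. No WT mouse was among the 13, and every treated group held at least 1 of them.

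The group means were 0.267 ± 0.175% in WT (SD, n = 5) and 0.507 ± 0.551% in NT (n = 8). For pacDNA-L9 they were 1.39 ± 0.757% for the lowest dose (n = 4), 1.33 ± 0.901% for the middle dose (n = 3) and 1.97 ± 1.66% for the highest (n = 3). They were 1.08 ± 0.980% for free L9 (n = 3), 1.06 ± 1.48% for Brush (n = 2) and 1.36 ± 1.51% for pacDNA-Scr (n = 2). NT exceeded WT by 0.240 percentage points and 42.4 mg/kg exceeded NT by 1.46 points. Without NT 7 the first difference was 0.0923 points, and without 42.4 mg/kg C the second was 0.707 points. The highest mouse of a group exceeded its lowest by 6.41-fold at 21.2 mg/kg, the smallest ratio, and by 195.5-fold in Brush, the largest. Without Tnnc2, a choice made after its values were seen, the means were 0.548% in NT, 1.52% at 5.3 mg/kg, 1.42% at 21.2 mg/kg and 1.16% for free L9. The other group means did not change.

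The second set's libraries lay in a narrow band, from 0.531 to 1.79% (n = 6), whereas the first set ran from 0.0108 to 3.47% (n = 24). All 6 exceeded the first set's median of 0.289%. Among NT the first set's mean was 0.331 ± 0.417% (SD, n = 6), and NT 7 and NT 8 held 1.54 and 0.531%. Without Tnnc2 the second set ran from 0.612 to 2.09%, with NT 7 and NT 8 at 1.79 and 0.612%. The first set's range did not change. Whether the set itself bears on the share was not tested. The RNA came from muscle samples of the quadriceps, and the part sampled in each mouse is not stated in the sources used here. In RNA of such samples, fewer slow fibres and less slow RNA per fibre cannot be told apart.

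**Figure D3:**
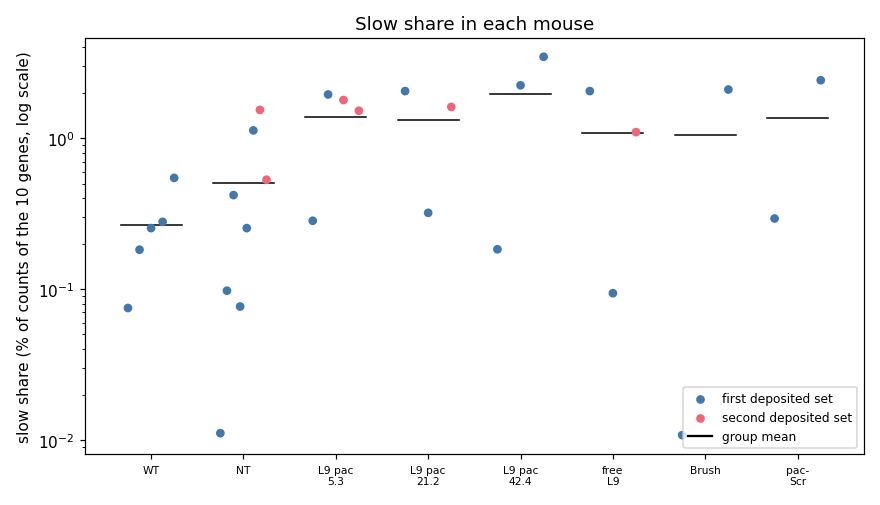
Slow share (vertical axis, percent of the counts of the 10 genes, log scale) in each mouse by group (horizontal axis), with a bar at the group mean and colour for the deposited set. WT mice lie between 0.0749 and 0.546%, and every group spans at least 6.41-fold.

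The 5 slow genes kept nearly the same order of mice. NT 1 and Brush A ranked between 1 and 3 of 30 for every slow gene, counted from the lowest, and 42.4 mg/kg C ranked 29 or 30. After each group's mean was subtracted, the 10 pairs of slow genes correlated over the 30 mice with Pearson r from 0.936 (Tnni1 with Myl2) to 0.979 (Tnni1 with Tnnc1) and Spearman rho from 0.906 to 0.973. In the first set alone r ran from 0.928 to 0.981 (n = 24). The points share a library and its depth, and the values are given as a description.

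The spread of the slow genes between mice of a group was far above that of other genes. Their SD on the log2 scale was 2.25 (Myl2) to 2.49 (Myl3), higher than for at least 97.4% of the 9574 genes with a mean of at least 5 CPM, whose median SD was 0.31. The fast genes other than Tnnc2 had SDs of 0.25 (Tnni2), 0.28 (Mylpf), 0.35 (Actn3) and 0.37 (Tnnt3). Pairs of a slow gene with 1 of these fast genes gave r from -0.34 (Myl2 with Actn3) to 0.52 (Tnnt1 with Tnnt3). Among 11 other fast fibre genes, r with the mean of the 5 slow genes ran from -0.24 (Myh4) to 0.85 (Myh2). Actn3 was negative with each of the 5 slow genes, from -0.34 to -0.11, which is weak.

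The genes most like the slow mean, by Pearson r over 30 mice with group means subtracted, were Myh6 (0.977), Myh7 (0.969), Tpm3 (0.939), Atp2a2 (0.917) and Myh7b (0.886), of 9564 genes outside the members. Myh7 encodes the slow myosin heavy chain, Tpm3 slow tropomyosin and Atp2a2 the calcium pump of slow fibres and heart. Myh6 and Myh7 are neighbours with near-identical sequence, so reads may be split between them, and the Myh6 value is uncertain. The lowest r were those of Rgl1 (-0.735), Itga9 (-0.698), Tspan15 (-0.694), Dcun1d4 (-0.683) and Jarid2 (-0.672). In the first set alone these 10 genes had r of 0.901 to 0.975 and -0.775 to -0.654.

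The mean of the 5 fast genes gave another list, led by Sumf2 (0.991), Gm12033 (0.989), Ubb-ps (0.988), Cstpp1 (0.986) and Gm5559 (0.986), with Sms-ps (-0.932), Gm4459 (-0.923), Gm13835 (-0.923), Ptges3-ps (-0.922) and Rtraf-ps (-0.919) at the other end. In the first set alone their r were 0.295 to 0.766 and -0.592 to -0.342. Tnnc2, described further on, is 1 of the 5 genes and splits by set. Without Tnnc2, a choice made after its values were seen, the list was led by Tmod4 (0.928), Tpm1 (0.926) and Park7 (0.926), then Spop (0.890) and Rpl35 (0.855). Tmod4 caps thin filaments and Tpm1 encodes the fast tropomyosin. The lowest r without Tnnc2 were those of Pigg (-0.855), Acap2 (-0.789), Rimoc1 (-0.777), Appbp2 (-0.769) and Epb41l1 (-0.767).

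Because Tnnc1, Myl2 and Myl3 are also heart genes, heart markers were read beside them. Tnni3, Myl7 and Nppa, which define heart muscle, were at most 0.281, 0.0482 and 0.215 CPM in any mouse, and Myl7 was at 0 counts in 29 of 30. The fourth marker, Myh6, ran from 0.0666 to 103 CPM, and the summed level of all 4 from 0.0666 to 103.5 CPM. Of the 4 heart markers 3 were thus at or near 0.

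Tnni2, Mylpf, Tnnt3 and Actn3 were abundant in every mouse, while Tnnc2, described further on, was near 0 in 24 of the 30. Per kilobase of exon, mean levels over all mice were 6976 CPM for Mylpf, 3879 for Tnni2, 2963 for Tnnt3 and 1653 for Actn3, against 10.6 (Tnni1) to 41.1 (Myl3) for the slow genes. Tnni2, fast troponin I, measured 8350, 5454, 7024, 7577 and 6836 CPM in WT, 5591 to 8121 CPM in NT with a median of 6301, and 7012, 5965 and 6018 CPM at 42.4 mg/kg. Over all 30 mice its highest and lowest values were 1.94-fold apart. The groups overlapped.

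Mylpf, the fast regulatory light chain, measured 14970, 7735, 10760, 10170 and 8777 CPM in WT, 7866 to 10220 CPM in NT with a median of 8149, and 8384, 7044 and 7041 CPM at 42.4 mg/kg. Its log2 fold change in NT against WT was -0.29 ± 0.16 (SE; edgeR adjusted p = 0.287). WT 1 stood highest of all 30 mice.

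Actn3 measured 10220, 10180, 11300, 9834 and 5908 CPM in WT, 5463 to 10220 CPM in NT with a median of 8766, and 8187, 9556 and 7723 CPM at 42.4 mg/kg. At 5.3 mg/kg it measured 8159, 4894, 5184 and 7598 CPM, a log2 fold change against NT of -0.41 ± 0.21 (SE) that did not pass the test (edgeR adjusted p = 1.00). Tnnt3 measured 16290, 12200, 13710, 14460 and 13170 CPM in WT, 10410 to 21360 CPM in NT with a median of 12200, and 13240, 11540 and 11200 CPM at 42.4 mg/kg. Over the sets, Tnnt3 ran from 8133 to 16580 CPM in the first and from 16040 to 22170 CPM in the second.

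**Figure D4:**
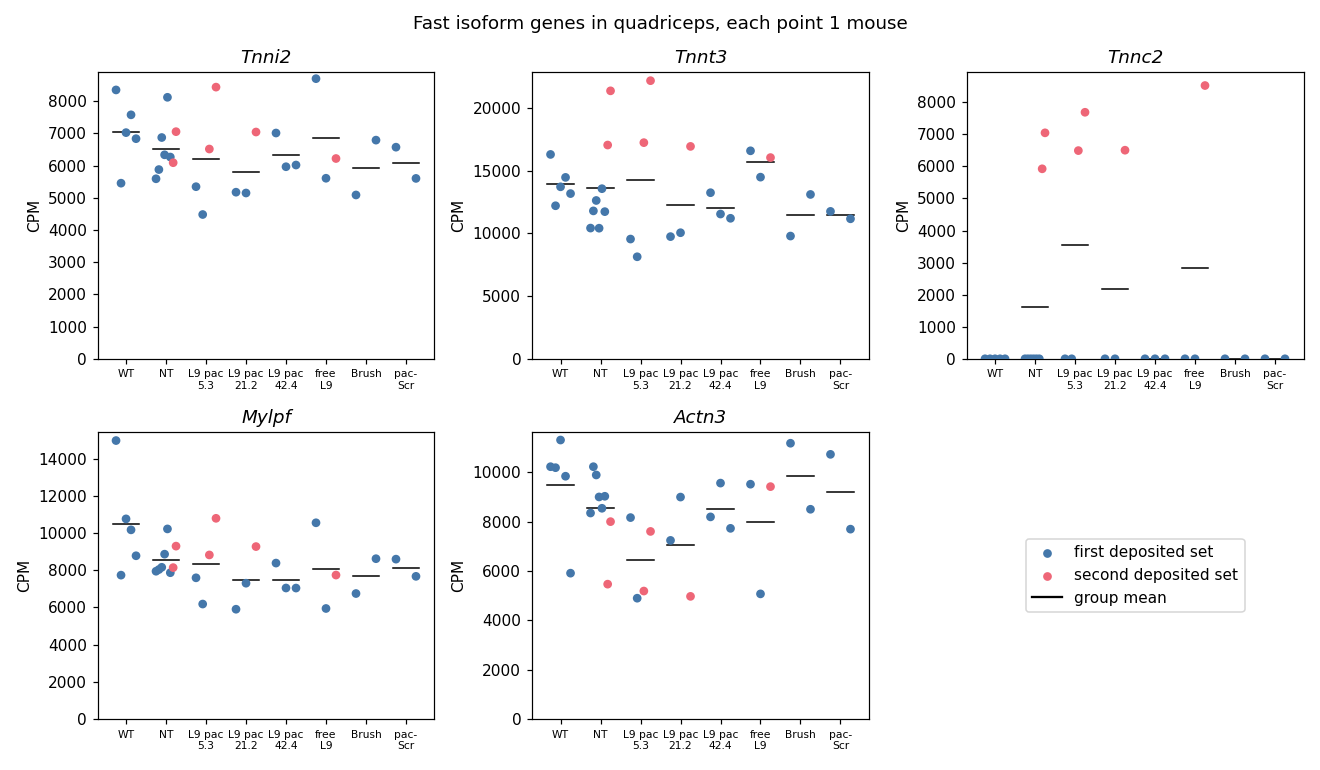
CPM of the 5 fast genes (vertical axis, linear scale from 0) in each mouse by group (horizontal axis), with a bar at the group mean and colour for the deposited set. Tnni2, Mylpf and Actn3 overlap between the sets, while Tnnc2 is at or near 0 in the first and 5925 CPM or more in the second.

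Tnnc2, fast troponin C, followed the deposited set and not the group. It held 0 to 7 counts in the 24 first-set libraries, 0 in 2 of them, and 95306 to 151565 counts in the 6 second-set libraries. In CPM this was 0 to 0.371 against 5925 to 8522. NT 7 and NT 8 held 5925 and 7047 CPM, while the other 6 NT mice held 0.0543 to 0.264 CPM, all with the same genotype and no treatment. Its fold changes between groups therefore carry the mix of sets in each group and are not read here as a difference between groups.

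Ube2c, a ubiquitin-conjugating enzyme of the cell cycle, lies on the other strand at the same place and followed the same split. On build GRCm39 Tnnc2 spans chr2:164619075-164621887 on the minus strand, and exons of Ube2c cover 68.7% of its exon bases. Ube2c held 0.626 to 4.88 CPM in the first set and 6370 to 8228 CPM in the second. In the second set Ube2c counts were 0.965 to 1.13 times those of Tnnc2. Without a stated strand setting, reads from the part they share cannot be told apart, and how each set was counted was not tested.

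The split went with opposite-strand overlap across genes. Between NT 7 and 8 and the other 6 NT mice, 30.04% of 283 genes with over 50% of their exon bases under exons of the other strand were more than 2 log2 units higher in the second set, compared with 3.18% of 5817 genes with less overlap and 1.91% of 3461 with none. Of the members, Mylpf (29.4%, under Tbc1d10b and Septin1) and Actn3 (26.8%, under Ctsf) come next in overlap, and their differences were 0.04 and -0.47. Tnnt3, with 4.89%, differed by 0.71. The slow genes have 0 to 5.79% overlap and differed by 2.58 (Myl3) to 3.78 (Tnnt1). For Myl3 NT 7 and 8 lay within the range of the other NT mice, and for the other 4 slow genes NT 7 lay above it. For Tnnt1 NT 8 also lay above it, at 85.5 CPM against 83.9 CPM in NT 6.

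**Figure D5:**
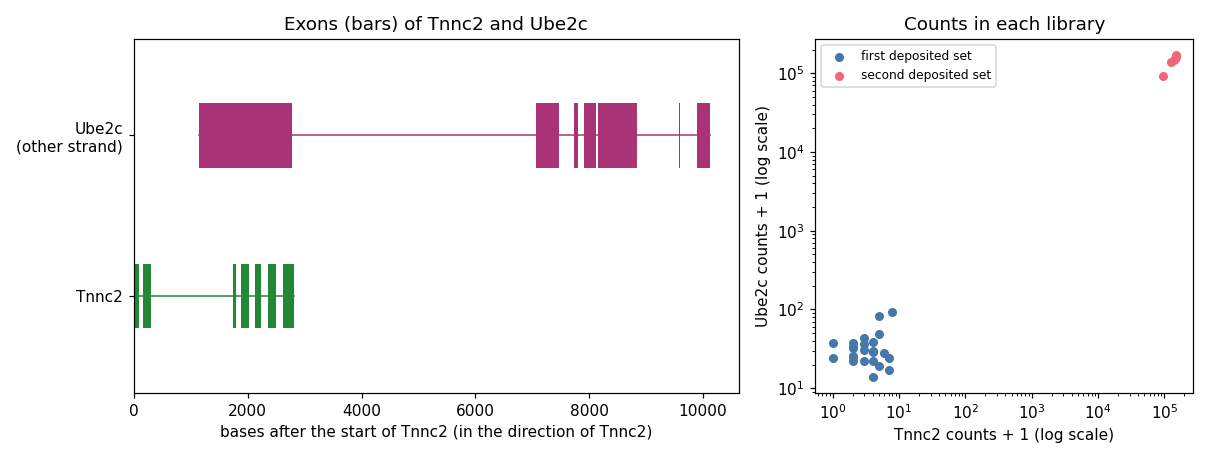
Left, exons of Tnnc2 and Ube2c by distance in bases from the start of Tnnc2 (horizontal axis). Right, Ube2c counts plus 1 against Tnnc2 counts plus 1 in each library (log scales), where 24 first-set libraries sit at the lower left and 6 second-set libraries at the upper right.

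Of 10 other slow fibre genes 0 passed in any of the 7 comparisons in edgeR, beside 0 to 4.97% of all genes tested. There were 3 at an unadjusted p under 0.05 in NT against WT and 3 at 42.4 mg/kg, beside 3771 and 2294 of all 17518 genes. The median log2 fold change of the 10 slow fibre genes was 0.69 in NT against WT and 1.08 at 42.4 mg/kg, where the median of all genes tested was 0.03 and -0.06. The 2 with the highest levels were Mybpc1, which encodes slow myosin-binding protein, and Atp2a2. Mybpc1 had a log2 fold change of 0.69 ± 0.25 (SE) in NT against WT and 0.36 ± 0.28 at 42.4 mg/kg against NT (edgeR adjusted p = 0.119 and 0.586). Atp2a2 had 0.69 ± 0.54 and 1.33 ± 0.59 (edgeR adjusted p = 0.495 and 0.344).

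Of 11 other fast fibre genes 1 passed, Myh1 in NT against WT, where 4.97% of all genes tested passed. Myh1 encodes the IIX heavy chain, and its mean was 4412 ± 1743 CPM in WT (SD, n = 5) and 11850 ± 6327 in NT (n = 8), a log2 fold change of 1.43 ± 0.33 (SE; edgeR adjusted p = 0.00941). Myh1 passed in 25 of 26 alternatives. In the mice given 42.4 mg/kg, 0 of the 11 passed in edgeR, beside 2.57% of all genes tested. None of the 11 had an unadjusted p under 0.05, beside 2294 of all 17518 genes. Myh4, the IIB heavy chain, had log2 fold changes of -0.08 ± 0.22 in NT against WT and -0.18 ± 0.27 at 42.4 mg/kg. Atp2a1, the fast calcium pump, had -0.01 ± 0.16 and -0.02 ± 0.19.

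Of 7 cardiac and developmental isoforms 5 could be tested, and Tnni3 and Myl7 were below the filter. In NT against WT, where 4.97% of all genes tested passed, Actc1, cardiac actin, fell and Myh8, the perinatal heavy chain, rose. Actc1 measured 195 to 3185 CPM in WT and 16.4 to 78.3 CPM in NT, with no overlap and a log2 fold change of -4.66 ± 0.57 (SE; edgeR adjusted p = 8.59e-06), and it passed in 25 of 26 alternatives. Myh8 rose by 1.21 ± 0.34 (adjusted p = 0.0366) and passed in 11 of 26 alternatives. Against NT, neither Actc1 (-0.56 ± 0.66) nor Myh8 (0.43 ± 0.38) passed at 42.4 mg/kg.

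Of 8 partners found in all fibres 2 rose in NT against WT, where 4.97% of all genes tested passed. Lmod2, leiomodin-2, which nucleates thin filaments, measured 23.1 to 81.7 CPM in WT and 167 to 370 CPM in NT, with no overlap (log2 fold change 2.04 ± 0.33, SE; edgeR adjusted p = 0.000246). Actn2, the alpha-actinin of all fibres, rose by 1.05 ± 0.23 (adjusted p = 0.00607). Both passed in 26 of 26 alternatives. In the 42.4 mg/kg mice, where 2.57% of all genes tested passed, Lmod2 was higher than in NT (1.37 ± 0.34, adjusted p = 0.0229) and Lmod3 lower (-0.85 ± 0.22, adjusted p = 0.0293). With a term for the libraries' names, which largely overlaps with this dose, the Lmod2 adjusted p was 0.579. Without mouse 42.4 mg/kg B the Lmod3 adjusted p was 0.404.

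Of 16 regulators of fibre type 0 passed in NT against WT, beside 4.97% of all genes tested. There 0 of the 16 had an unadjusted p under 0.05 in edgeR, beside 3771 of all 17518 genes. At 42.4 mg/kg 4 of the 16 passed, beside 2.57% of all genes. Mef2c and Tbx15, the 2 with the highest levels, had log2 fold changes of 0.26 ± 0.17 (SE) and 0.18 ± 0.11 in NT against WT. At the highest dose Ppargc1a, a coactivator of mitochondrial and slow fibre genes, rose by 1.46 ± 0.25 (SE; adjusted p = 0.00133), Myog by 1.82 ± 0.49 (adjusted p = 0.0481) and Hdac4 by 0.96 ± 0.24 (adjusted p = 0.0262), and Tead1, a TEAD factor, fell by 0.95 ± 0.21 (adjusted p = 0.0123). Without mouse 42.4 mg/kg B the adjusted p was 0.128, 0.689, 0.536 and 0.139 in this order, so none of the 4 passed. With group means subtracted, r with the slow mean was -0.07 for Ppargc1a, 0.27 for Myog, -0.22 for Hdac4 and -0.17 for Tead1. These r, over 30 mice, leave out the differences between groups. Whether these regulators bear on the slow genes was not tested.

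Markers of other cells were read beside these groups. Of 5 macrophage markers 3 were higher at 42.4 mg/kg than in NT (Cd68, Csf1r and C1qa) and 1 each at 21.2 mg/kg and in NT against WT (Cd68). The share of all genes tested that passed was 2.57% at 42.4 mg/kg, 0.0514% at 21.2 mg/kg and 4.97% in NT against WT. At 21.2 mg/kg Cd68 had an edgeR adjusted p of 0.0426 and passed in 8 of 22 alternatives, with 0.149 in the first set and 0.986 without mouse B, and it was also lost without mouse C or any single NT mouse except NT 3. At 42.4 mg/kg the calls did not hold for C1qa (0.153) and Cd68 (0.0532) with a term for library name, which largely overlaps with this dose. Nor did they hold for Csf1r (0.114) and C1qa without mouse B. The summed level of the 5 macrophage markers was 84.0 to 115 CPM at 42.4 mg/kg and 33.3 to 56.7 CPM in NT, without overlap. It also lay above the NT range at 5.3 mg/kg (69.95 to 82.49 CPM) and in the Brush mice (79.24 to 83.49 CPM, n = 2). The 21.2 mg/kg, free L9 and pacDNA-Scr groups overlapped NT. The separation from NT was thus not particular to the highest dose and was also seen with the polymer alone. None of the 5 adipocyte, 4 fibroblast or 3 endothelial markers passed in any comparison in edgeR, though all 3 endothelial markers had an unadjusted p under 0.05 in NT against WT. So did 3771 of all 17518 genes tested there. Of the 5 skeletal muscle markers 1 passed, Mb (myoglobin), which rose in NT against WT by 1.62 ± 0.33. Their part in the values of the slow genes was not tested.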

How the data were processed

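Quadriceps RNA of 30 mice was measured by poly(A)-enriched paired-end sequencing. The deposited table holds raw read counts of 56748 genes, which the authors made by alignment to GRCm39 (HISAT2 2.0.5 in the submitters' processing notes). The counting options, strand setting and annotation release are not given in the sources used here. Coordinates, exon lengths and strand overlap were taken from GENCODE vM39, which matched 56017 genes.

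Groups and replicates were taken from the labels. The column of 1 WT library matched its group but no label of its own, and it was used as a WT mouse without a number. The members and gene lists were chosen with earlier results of these data known. The genes named from each list were at most 6 with the smallest p past the threshold in NT against WT and at 42.4 mg/kg or, where fewer than 2 passed, the 2 highest in level. Likeness is Pearson r with the mean log2 CPM of the slow or of the fast members after each group's mean was subtracted, among genes of at least 5 CPM, and the 5 highest and 5 lowest were named.

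Counts were tested with edgeR 4.0.16 (R 4.3.3). Genes were filtered by filterByExpr, which left 17518, and normalized by TMM. A robust quasi-likelihood model with 8 conditions was fitted to all 30 libraries, with Benjamini-Hochberg adjustment over all genes and a threshold of 0.05. CPM are TMM-scaled. Standard errors were taken as the absolute log2 fold change divided by the square root of F. The code was tested on simulated data. Alternatives were DESeq2 1.42.0, other normalizations and filters, the first set, terms for set, sex and library name, fewer libraries and each mouse left out. The first set with a term for library name, the unpaired fit of 8 libraries, and the slow share without Tnnc2 or without the Tnnc1 and Tnnc2 pair were chosen after seeing the data. Library totals of 13605309 to 26956558 counts set the precision, and Wilson intervals cover counting error only. The result of a further list of cell markers is not reported here.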

Additional observations from a re-analysis of the deposited data

Results flagged for a closer look

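In NT, mouse NT 7 lay far from the others of its group for Tnnt1 (204 CPM), Myl2 (164 CPM) and Actn3 (5463 CPM), the slow genes on the high side and Actn3 on the low side. NT 7 belongs to the second deposited set. In WT, the mouse without a number lay far below the others for Actn3, at 5908 CPM. The gap to the nearest mouse, relative to the group's range, was tested by Dixon's limit in 33 sets of values, of which 4 exceeded it. Chance flags about 1 in 20 where sets are independent and values follow a normal curve. Here the slow genes tracked each other and their CPM spread widely, so the 4 flags cannot be read against that rate. The causes were not tested.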

How the results depend on the processing

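The count of members passed stayed at 0 in each of the 7 comparisons under 154 of 158 alternatives, each mouse left out included (range 0 to 0). The other 4 were DESeq2's Wald test, with 1 in NT against WT, 42.4 mg/kg, Brush and pacDNA-Scr, each time Tnnc2. The replicate block of WT and NT 1 to 4 gave 0 members and 631 genes, against 680 unpaired in the same 8 libraries. Of the 4 same-number pairs 3 had correlations over 0.1 (0.16, 0.11 and 0.19) and pair 2 had -0.05, and 6 of 8 mice correlated best with their own number. No label ties a number to a litter or day, so pairing was not established. With the block the adjusted p was 0.0564 for Actc1 and 0.0563 for Myh1. In NT against WT the block turned the slow genes to the lower side (Tnni1 -1.45, Tnnt1 -1.93, Tnnc1 -1.65, Myl2 -1.61, Myl3 -0.77), and so did the unpaired fit of these 8 libraries (-0.65, -0.82, -0.60, -1.11 and -0.036). The first set with a term for library name gave -0.15 for Tnni1, -0.32 for Tnnt1, -0.045 for Tnnc1 and -0.67 for Myl2. Myl2 was also at -0.57 in the first set, -0.42 with a term for set, -0.57 without the libraries that lack mitochondrial counts and ran from -0.33 (without NT 7) to 0.91 (without the unnumbered WT mouse). Tnnc2 turned to -0.83 with a term for set, and Tnnt3 lay between -0.16 and 0.022 with single mice left out (above 0 without WT 1, NT 1 or NT 4). At 42.4 mg/kg against NT, Tnnt1 was at -0.10 and Actn3 at 0.29 with a term for library name, which largely overlaps with this dose. Actn3 was at 0.067 with a term for sex, 0.20 in the first set with a term for library name, and -0.10 to 0.050 with single mice left out (above 0 without NT 2, NT 3, or mouse A or C of that dose). With a term for set Tnni2 was at 0.0072, Tnnt3 at 0.035 and Tnnc2 at 0.46. Tnni2 ran from -0.13 to 0.0081 with single mice left out (above 0 without NT 5), and Tnnt3 was at 0.015 in the first set and 0.029 without the libraries that lack mitochondrial counts. The cause of these turns was not tested. The slow share difference stayed within the spread between mice under 36 of 38 alternatives, with each mouse left out from 0.0923 to 0.311 points for NT minus WT and from 0.707 to 2.35 points for 42.4 mg/kg minus NT. The mean of the 4 pair shares gave -5.56 and 7.79 points, since Tnnc2 is near 0 in the first set and its pair share there is near 100%, by construction. With standard errors near 1 log2 unit, differences of 2-fold in the slow genes were not detectable in these groups.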
